A study of Mus musculus with 5 samples.

Results

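The genes described here are 10 thymocyte surface and costimulation genes, Ptprc, Thy1, Cd2, Cd6, Cd24a, Cd27, Cd28, Cd44, Spn and Slamf1, chosen by name from 22372 protein-coding genes and not by any value measured here. ChIP-seq was carried out in CD4+CD8+ double-positive (DP) thymocytes, an intermediate stage of T cell development, and was used to ask where Cxxc1 binds and how histone H3 trimethylated at lysine 4 (H3K4me3) differs without Cxxc1. The series has 5 samples, each a single library: Cxxc1 ChIP and H3K4me3 ChIP from wild-type (WT) and from Cxxc1-deficient DP thymocytes, and WT input. The 3 deposited lists hold Cxxc1 ChIP, H3K4me3 in WT and H3K4me3 in Cxxc1-deficient cells. Cxxc1-deficient Cxxc1 ChIP and input were not analysed here.

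By the study's methods the WT mice were Cxxc1 fl/fl, and the Cxxc1-deficient mice were Cxxc1 fl/fl carrying an hCD2-driven Cre, so both genotypes carried the floxed allele. The hCD2-Cre transgene uses human CD2 regulatory sequence and is active in early thymocytes and in other immune cells, so deletion was not limited to DP cells. The Cxxc1-deficient libraries are called KO in their titles and Cxxc1+/- in their genotype label, and the titles were followed here. The Cxxc1 list carries no genotype, and by the study's methods it holds peaks of WT cells. Mice were 3 to 4 weeks old unless specified otherwise, by the same methods, and the number of animals behind each library is not given in the sources used here. In such bulk libraries, fewer cells with a mark and less mark per cell cannot be told apart.

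Cxxc1 (CXXC finger protein 1) binds unmethylated CpG dinucleotides and is a subunit of the Setd1 complexes, which trimethylate H3K4. H3K4me3 marks the promoters of active genes and, at highly active ones, spreads into the start of the gene body. The genes of this group encode surface proteins that a developing T cell uses to tune antigen receptor signals, to adhere to other cells and to receive costimulation: CD45 (Ptprc) and CD43 (Spn), the GPI-anchored Thy-1 and CD24, the adhesion receptors CD2, CD6 and CD44, and the costimulatory receptors CD27, CD28 and SLAM (Slamf1).

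A peak is a run of listed 200-bp windows, joined across at most 2 missing windows, and its value is the sum of the windows in RPM (tags per 1000000 mapped tags). The step between values gave what 1 tag is worth, and with it the number of tags in each window and the depth. In units of 1000000 tags, depth was 9.10 to 9.12 for Cxxc1, 9.46 to 9.47 for WT H3K4me3 and 9.44 to 9.45 for Cxxc1-deficient H3K4me3. Intervals on tags are 95% exact Poisson intervals and cover counting error only. The intervals also do not account for the fact that a window is seen only when its region passed the peak caller. In addition, no listed window held fewer than 2 tags. Where no window is listed, the signal is unknown rather than 0. Inside a peak, a missing window may have held fewer than 2 tags. As each genotype has 1 library, differences between genotypes lack a replicate check, and no p-value is given.

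The cell type label was set against promoter H3K4me3 in WT cells. Of 6 DP thymocyte markers found in the annotation, Cd8a and Cd8b1 had a WT promoter peak, and Cd4, Rag1, Rag2 and Dntt had none listed. A WT promoter peak was listed at 1 of 5 B cell markers (Cd79b, 0.4 RPM) and at 1 of 3 erythroid markers (Klf1, 0.9 RPM). It was listed at 0 of 4 macrophage or dendritic cell markers and at 0 of 5 thymic epithelium markers. The share of all protein-coding genes was 31.1%. In the gene body plus 10 kb upstream, WT counts were 3 of 6 DP, 1 of 5 B cell, 2 of 4 macrophage or dendritic cell, 0 of 5 epithelium and 1 of 3 erythroid markers. Cxxc1-deficient counts there were 3, 2, 0, 0 and 1 in the same order. The shares of all genes were 41.5% and 11%. In Cxxc1-deficient cells a promoter peak was listed at Cd8a (1.5 RPM) and at Rag1 (0.7 RPM), the latter without a WT one. These RPM values sum only the windows within 1 kb of a TSS and can be part of a larger peak. Since 4 defining DP markers were not listed in WT, absence from the WT list did not separate inactive from active genes.

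Promoter sequences are shown first, because Cxxc1 recognises CpG and the promoters of these genes differ in how many they hold. Each is 300 bases of mm9, from 250 bases before to 50 bases from the first annotated transcription start site (TSS) of the gene, written 5′ to 3′ on the strand of the gene, with CpG in capitals. Cd24a (chr10:43298725-43299024, plus strand) is the CpG-rich member with WT H3K4me3. Thy1 (chr9:43851217-43851516, plus strand) is intermediate. Cd6 (chr19:10904499-10904798, minus strand) is the member with a promoter peak in both genotypes. Cd27 (chr6:125186979-125187278, minus strand) is the member with both Cxxc1 and H3K4me3 at its start. Cd28 (chr1:60802952-60803251, plus strand) stands for the members with no peak.
Cd24a: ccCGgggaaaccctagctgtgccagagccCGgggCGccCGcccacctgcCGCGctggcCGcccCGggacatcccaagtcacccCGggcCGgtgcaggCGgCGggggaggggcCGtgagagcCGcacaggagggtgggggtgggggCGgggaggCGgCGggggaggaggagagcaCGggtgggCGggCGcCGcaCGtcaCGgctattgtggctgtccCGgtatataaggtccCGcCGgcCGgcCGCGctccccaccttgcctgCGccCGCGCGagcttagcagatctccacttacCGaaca
Thy1: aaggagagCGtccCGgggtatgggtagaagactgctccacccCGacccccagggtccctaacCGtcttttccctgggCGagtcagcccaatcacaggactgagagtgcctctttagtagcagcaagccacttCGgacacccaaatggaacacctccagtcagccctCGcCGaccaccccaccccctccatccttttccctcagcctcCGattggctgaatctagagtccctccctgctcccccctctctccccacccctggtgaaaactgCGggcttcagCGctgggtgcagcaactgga
Cd6: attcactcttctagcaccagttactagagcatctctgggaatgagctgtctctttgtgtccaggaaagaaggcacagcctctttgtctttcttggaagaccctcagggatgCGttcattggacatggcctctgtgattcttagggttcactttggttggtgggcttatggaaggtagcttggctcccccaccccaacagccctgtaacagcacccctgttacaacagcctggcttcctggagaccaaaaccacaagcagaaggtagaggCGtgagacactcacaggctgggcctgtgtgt
Cd27: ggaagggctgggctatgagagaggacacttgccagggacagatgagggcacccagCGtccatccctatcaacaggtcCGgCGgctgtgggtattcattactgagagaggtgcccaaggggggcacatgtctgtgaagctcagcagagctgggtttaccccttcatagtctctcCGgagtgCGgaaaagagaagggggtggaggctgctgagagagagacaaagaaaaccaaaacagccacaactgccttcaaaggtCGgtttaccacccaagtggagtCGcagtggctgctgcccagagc
Cd28: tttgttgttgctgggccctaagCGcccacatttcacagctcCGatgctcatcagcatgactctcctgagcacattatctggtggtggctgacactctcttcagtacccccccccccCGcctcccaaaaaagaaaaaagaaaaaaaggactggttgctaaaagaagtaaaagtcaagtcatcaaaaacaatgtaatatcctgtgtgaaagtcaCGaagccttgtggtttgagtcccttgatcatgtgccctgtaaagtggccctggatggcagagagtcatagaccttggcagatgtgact

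The Cd24a stretch holds 34 CpGs, that of Thy1 11, that of Cd27 7, that of Cd28 4 and that of Cd6 2. The promoters of Ptprc, Cd2, Cd44, Spn and Slamf1, which are not printed, hold between 3 and 6. CpG number within 500 bp of the first TSS ranged from 8 at Slamf1 to 89 at Cd24a, and GC content from 38.8% at Ptprc to 67.4% at Cd24a. A set of 5 short motifs was searched on both strands of the same 300 bases. GGGCGG, the GC box, was present at Cd24a, with 4 matches, and at Cd44, against 43.9% of all promoters. TGTGGT, the core of RUNX sites, was present at Cd2, Cd6 and Cd28, against 15.2% of all promoters. CAGNTG, an E-box, was present at Thy1, Cd24a, Cd27, Cd28 and Slamf1, against 48.5%. TATAAA was present at Ptprc, against 13.4%, and CCGGAAG, an ETS site, at none of the 10 genes, against 10.9%. Such matches are letters in these windows and not evidence of binding.

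Across the group, WT H3K4me3 was found at the promoters of Thy1, Cd6, Cd24a, Cd27 and Spn, a promoter being the region within 1 kb of a TSS. This is 5 of 10 genes, beside 31.1% of all protein-coding genes. In Cxxc1-deficient cells Cd6 alone had a promoter peak, which is 1 of 10 beside 5.86% of all genes. Cxxc1 itself had a peak at the promoter of Cd27, 1 of 10 beside 1.96% of all genes. With 10 genes, a single gene moves such a share by 10 percentage points.

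In the gene body plus 10 kb upstream, WT H3K4me3 was listed at 6 of 10 genes, beside 41.5% of all genes, with Cd44 added to the 5 above. Cxxc1-deficient H3K4me3 was listed at 3 of 10 (Ptprc, Thy1 and Cd6), beside 11% of all genes. With 50 kb upstream in place of 10 kb, it was listed at 5 of 10, Cd24a and Cd27 being added, beside 17.8% of all genes. Cxxc1 was listed at 2 of 10 (Cd27 and Ptprc), beside 11.1%. Cd2, Cd28 and Slamf1 had no peak of any list, 3 of 10 beside 52.1% of all genes. The 16 peaks of the group (10 WT, 4 Cxxc1-deficient and 2 Cxxc1) held 15 to 53 tags each, and single windows held 2 to 7 tags.

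**Figure D1:**
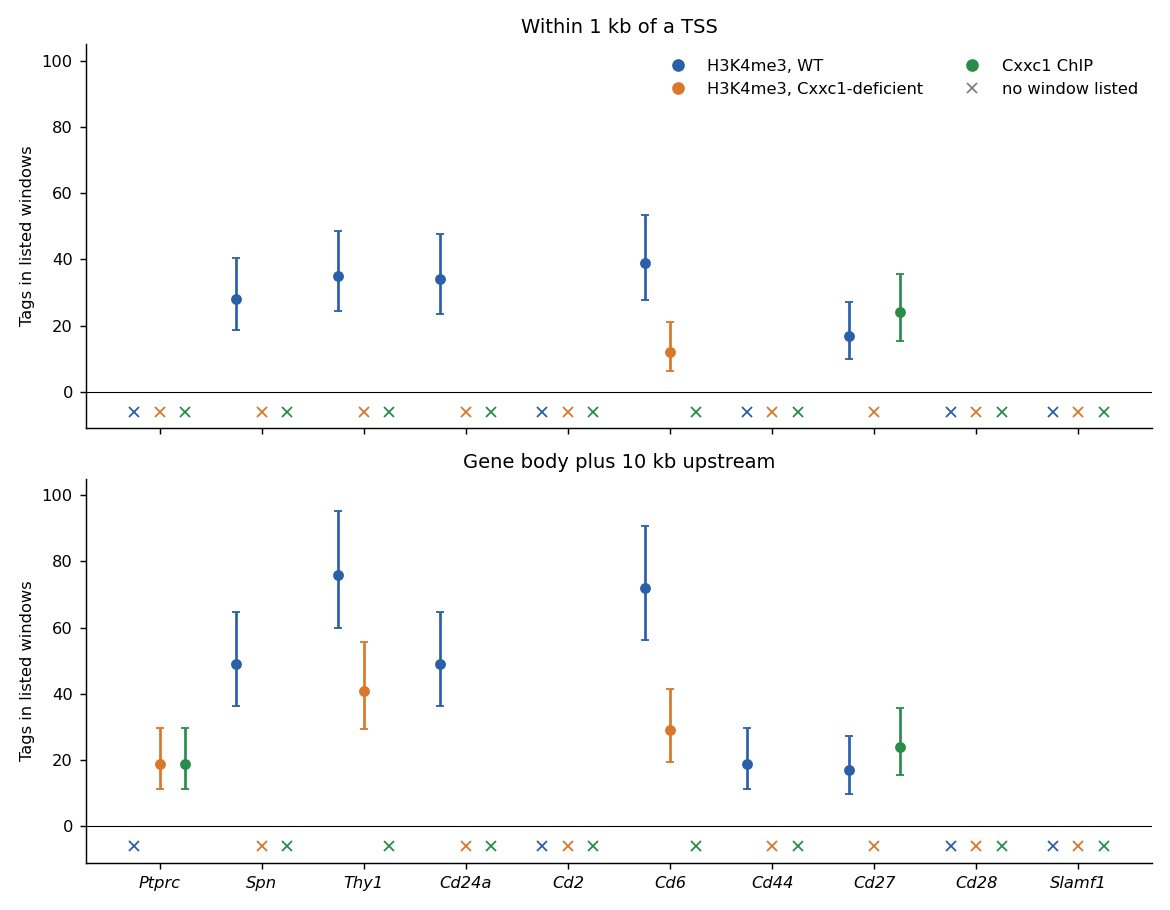
Tags in listed windows (y axis) for each of the 10 genes (x axis) and each list, within 1 kb of a TSS (top) and in the gene body plus 10 kb upstream (bottom). Points are single libraries with 95% exact Poisson intervals, and crosses under the zero line mark lists with no window there, whose signal is unknown. Cd6 is the one gene with both H3K4me3 lists at its promoter, at 39 tags in 11 listed WT windows and 12 tags in 4 listed Cxxc1-deficient windows.

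Ptprc encodes CD45, the receptor-type tyrosine phosphatase that removes the inhibitory phosphate of Lck. It is the longest gene of the group (ENSMUSG00000026395.8, chromosome 1, 139959438 to 140071882, minus strand, 112 kb). No H3K4me3 window was listed within 1 kb of its 2 TSSs in either genotype, and none in WT in the whole region. In Cxxc1-deficient cells a peak of 1.9 RPM (19 tags, 11.4 to 29.7) lay in an intron at 140048201 to 140050200, centred 22.7 kb inside the gene. The Cxxc1 peak, also 1.9 RPM and 19 tags, lay in an intron at 140008601 to 140010200, centred 62.5 kb inside, and overlapped no H3K4me3 peak. Cxxc1-deficient H3K4me3 without WT H3K4me3 in the gene body plus 10 kb upstream was found at 1 of 10 genes, beside 2.49% of all genes. Longer regions hold more Cxxc1 peaks: a Cxxc1 peak was listed at 33.8% of the 2697 genes whose region exceeds 100 kb, which include Ptprc and Cd44, and at 3.76% of the 8873 under 20 kb. Both Ptprc peaks were CpG-poor, with 13 CpGs over 1600 bp for Cxxc1 and 12 over 2000 bp for H3K4me3. These numbers are 0.22 and 0.17 of what base composition predicts, beside medians of 0.20 for all Cxxc1 peaks and 0.29 for all Cxxc1-deficient H3K4me3 peaks. Low CpG content was thus common in both lists.

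Spn encodes CD43, the large sialomucin of T cells (ENSMUSG00000051457.6, chromosome 7, 134275746 to 134281337, minus strand). WT H3K4me3 formed a single peak of 4.9 RPM (49 tags, 36.3 to 64.8) at 134278401 to 134282200, from 863 bp upstream to 2936 bp downstream of the TSS. At 3.8 kb it was wider than 95.9% of the WT promoter peaks of all genes, whose median width was 1.6 kb. Its highest window, 0.7 RPM, was centred 1236 bp downstream of the TSS, and the midpoint of the peak lay in an exon. No window of the Cxxc1-deficient or Cxxc1 list was found in its region.

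Thy1 encodes the GPI-anchored Thy-1 of all murine thymocytes (ENSMUSG00000032011.4, chromosome 9, 43851467 to 43856662, plus strand). It carried 3 WT H3K4me3 peaks, more than any other gene of the group except Cd6, which also had 3. The promoter peak, 4.2 RPM (42 tags, 30.3 to 56.8) at 43851001 to 43853000, had its highest window of 0.7 RPM centred at -166 bp from the TSS. The next, 2.9 RPM (29 tags) at 43854001 to 43855600, lay at 3.33 kb with its midpoint in an exon, and the last, 2.8 RPM (28 tags) at 43856601 to 43858800, straddled the 3′ end of the gene. No WT window was listed between the end of one peak and the start of the next, so the signal in those parts of the gene is unknown.

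In Cxxc1-deficient cells the Thy1 promoter had no listed window. A peak of 2.9 RPM (29 tags, 19.4 to 41.6) remained listed over the gene body at 43854001 to 43856600, with the same first window as the middle WT peak. In the 5 windows listed in both genotypes WT held 24 tags and Cxxc1-deficient cells 17, a ratio of 1.41 with an exact conditional interval of 0.73 to 2.79, which includes no difference between these libraries. In that stretch WT also had windows of 3 and 2 tags that the Cxxc1-deficient list does not hold. The ratio leaves them out, so it need not describe the whole stretch. A further Cxxc1-deficient peak of 1.5 RPM (15 tags) lay upstream at 43841001 to 43842400, centred at -9.77 kb from the TSS, with no WT peak there. It was stronger than 3.76% of its own list, so it stood close to the lowest peaks called.

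Cd24a encodes the GPI-anchored heat-stable antigen, abundant on immature thymocytes (ENSMUSG00000047139.8, chromosome 10, 43298975 to 43304068, plus strand). Its WT H3K4me3 peak of 4.9 RPM (49 tags, 36.3 to 64.8) at 43297801 to 43301200 ran from 1174 bp upstream to 2225 bp downstream of the TSS and was wider, at 3.4 kb, than 93.7% of WT promoter peaks. The window that contains the TSS was not listed, the nearest listed windows being centred at -274 bp and 126 bp from it. The highest window, 0.6 RPM, was centred 726 bp downstream. This was the one CpG-rich peak of the group, with 181 CpGs, 0.71 of the number its base composition predicts (the observed to expected CpG ratio), and neither Cxxc1 nor Cxxc1-deficient H3K4me3 was listed in the region.

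Among the adhesion receptors, Cd6 (ENSMUSG00000024670.9, chromosome 19, 10863831 to 10904548, minus strand) had the strongest and widest promoter peak of the group. CD6 is a scavenger-receptor family protein that binds ALCAM. The WT peak held 5.3 RPM (53 tags, 39.7 to 69.3) at 10901801 to 10905800, and at 4.0 kb it was wider than 96.8% of WT promoter peaks. Its 15 windows ranged from 0.2 to 0.5 RPM, so the total came from width and not from a high summit. The highest were 0.5 RPM at -152, 48 and 848 bp from the first TSS.

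The Cxxc1-deficient peak at Cd6, 2.9 RPM (29 tags, 19.4 to 41.6) at 10901801 to 10904200, shared the inner edge of the WT peak and ended short of the TSSs. All of its 9 windows were downstream of the first TSS, the nearest centred at 448 bp and the highest, 0.7 RPM, at 1448 bp. No window over the TSS or upstream of it was listed in Cxxc1-deficient cells, where WT had 7 windows. In the 4 windows listed in both, WT held 14 and Cxxc1-deficient cells 12 tags, a ratio of 1.16 with an interval of 0.50 to 2.76. Over the stretch both peaks cover, each list also held windows that the other did not. They held up to 7 tags in Cxxc1-deficient cells and up to 4 in WT, so this ratio need not describe the whole stretch. Within 1 kb of a TSS, 11 listed WT windows held 39 tags (27.7 to 53.3) and 4 listed Cxxc1-deficient windows held 12 tags (6.2 to 21). These sums cover different windows and are not a measure of a difference between genotypes. The 3 promoter windows listed in both held 11 tags in WT and 9 in Cxxc1-deficient cells. The other 28 of the 39 WT tags lay in 8 windows that the Cxxc1-deficient list does not hold. Of these, the window at 10903801 to 10904000 lies inside the Cxxc1-deficient peak and may have held fewer than 2 tags there. Within 2 kb of a TSS the WT sum was 5.0 RPM in place of 3.9 RPM, and the Cxxc1-deficient sum 2.4 RPM in place of 1.2 RPM.

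Cd6 had 2 other WT peaks near its 3′ end. One of 1.5 RPM (15 tags) lay in an intron at 10866001 to 10867400. The other, 4.0 RPM (40 tags, 28.6 to 54.5) at 10860801 to 10864200, had its midpoint past the end of the gene, and the nearest TSS of another protein-coding gene, A430093F15Rik, was 45.4 kb away. Neither had a Cxxc1-deficient counterpart.

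Cd44, the hyaluronan receptor (ENSMUSG00000005087.10, chromosome 2, 102651298 to 102741822, minus strand), had no listed window within 1 kb of any of its 7 TSSs. Its one WT peak, 1.9 RPM (19 tags, 11.4 to 29.7) at 102735601 to 102737400, lay in an intron centred 5.32 kb from the first TSS and exceeded 25% of the WT list. Cd2, the receptor for CD48 (ENSMUSG00000027863.7, chromosome 3, 101079822 to 101091862, minus strand), had no listed window in any list, also with 50 kb upstream included.

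Cd27 was the one gene of the group with a Cxxc1 peak at its promoter. It encodes a costimulatory TNF receptor family member (ENSMUSG00000030336.8, chromosome 6, 125182640 to 125187028, minus strand). The Cxxc1 peak held 2.4 RPM (24 tags, 15.4 to 35.7) at 125186001 to 125187400, reached from 372 bp upstream to 1027 bp downstream of the first TSS, and was stronger than 86.3% of the Cxxc1 list. The WT H3K4me3 peak, 1.7 RPM (17 tags, 9.9 to 27.2) at 125186401 to 125187400, was the weakest promoter peak of the group and exceeded 12.5% of its list. All 5 of its windows were also listed for Cxxc1, and both peaks began at the same upstream window. The highest windows, 0.5 RPM each, were centred at -72 bp from the first TSS for H3K4me3 and at 128 bp for Cxxc1.

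No H3K4me3 window was listed at Cd27 in Cxxc1-deficient cells. The start of Cd27 is near another gene: the closest TSS of a different protein-coding gene, Tapbpl, was 4.52 kb from the WT peak. A Cxxc1 peak and a WT H3K4me3 peak at the same promoter were found at 1 of 10 genes, beside 0.894% of all genes. Of 438 genes with a Cxxc1 promoter peak, 200 had WT promoter H3K4me3, and 170 of these had no Cxxc1-deficient promoter peak. Among all 6962 genes with a WT promoter peak, 893 (12.8%) had a Cxxc1-deficient one, so most of them lacked it as well. The Cxxc1 peak at Cd27 had 22 CpGs and an observed to expected CpG value of 0.22, close to the median of 0.20 over all Cxxc1 peaks.

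Cd28, the main costimulatory receptor of T cells (ENSMUSG00000026012.2, chromosome 1, 60773644 to 60830203, plus strand), and Slamf1, a homophilic receptor of the SLAM family (ENSMUSG00000015316.9, chromosome 1, 173697258 to 173731315, plus strand), had no listed window in any list, also with 50 kb upstream included. The annotated Cd28 gene starts at 60773644 and its coding transcript at 60803202, and the promoter was taken around the latter.

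**Figure D2:**
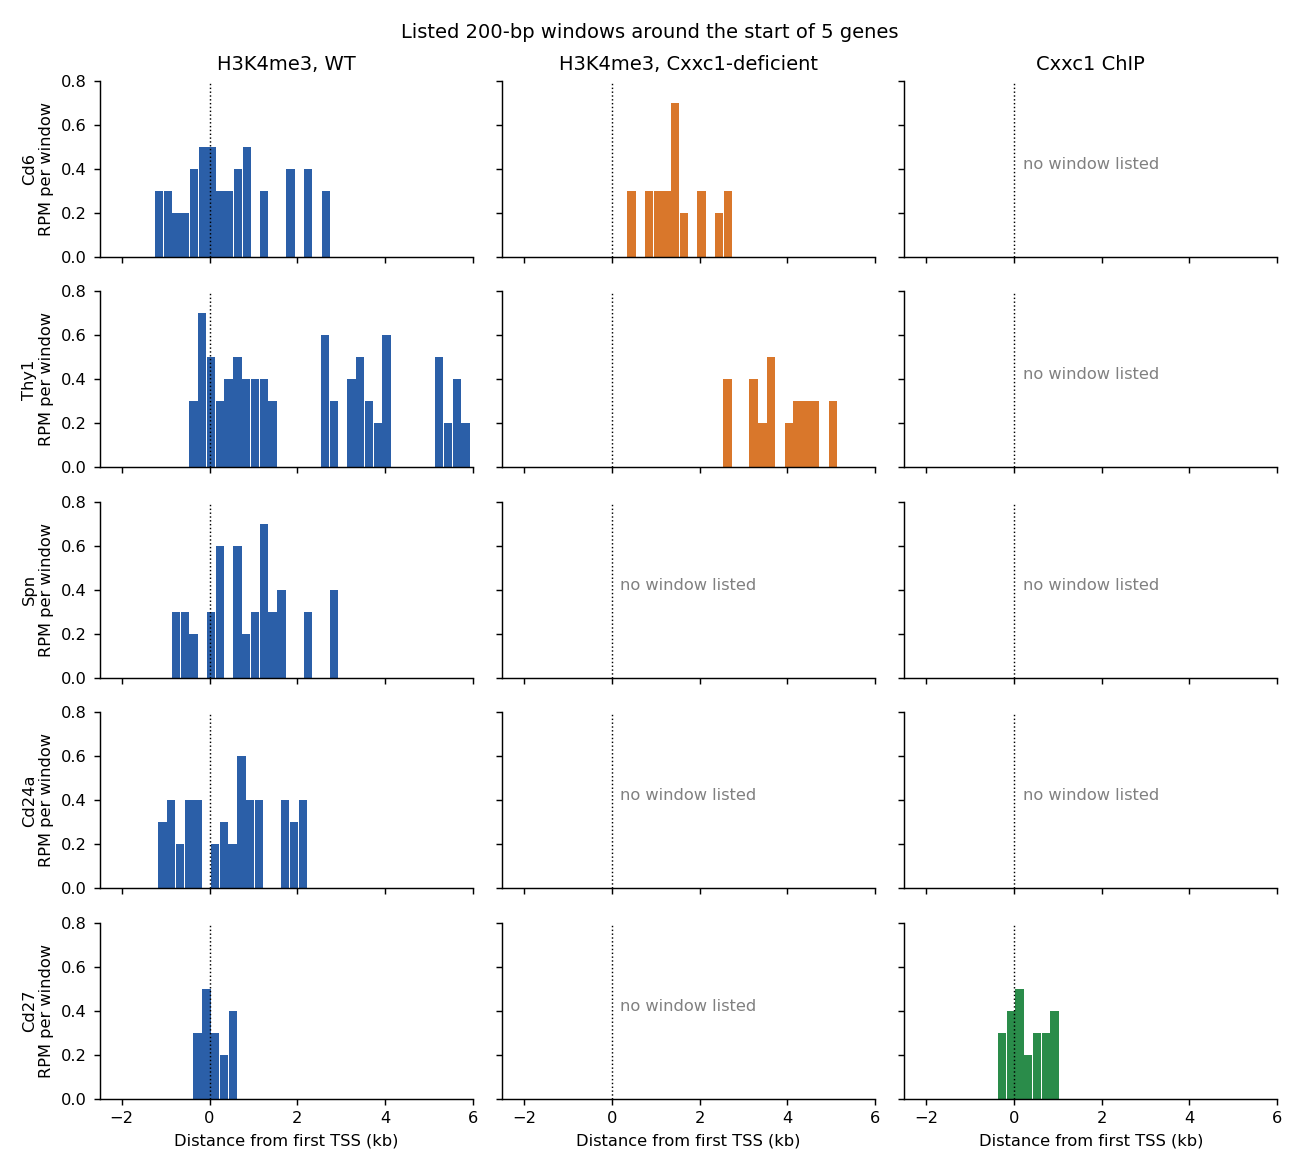
RPM of each listed 200-bp window (bars, y axis) by distance of its centre from the first TSS (x axis, kb, positive into the gene) for the 5 genes with a WT promoter peak, in the 3 lists. Gaps are windows that were not listed. The Cxxc1-deficient windows drawn for Cd6 and Thy1 lie inside the gene, from 448 bp and 2634 bp after the TSS. The Cxxc1-deficient Thy1 peak centred at -9.77 kb lies outside the range drawn. At Cd27 the Cxxc1 and WT H3K4me3 windows begin together.

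The WT promoter signal of the group was next placed among the 6962 genes with a WT promoter peak, whose summed promoter windows had a median of 2.4 RPM and quartiles of 1.9 and 3.0 RPM. Cd6 (3.9 RPM) exceeded 91.1% of these genes, Thy1 (3.5 RPM) 84.7%, Cd24a (3.4 RPM) 82.9% and Spn (2.8 RPM) 65.4%, whereas Cd27 (1.7 RPM) exceeded 15.6%. The tag intervals of Cd6, Thy1, Cd24a and Spn overlap, so their order is not resolved by counting. Cd27 lay below them, and its interval of 9.9 to 27.2 tags overlaps those of Spn (18.6 to 40.5) and Thy1 (24.4 to 48.7) and Cd24a (23.5 to 47.5) but not that of Cd6.

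A promoter peak in both genotypes was found at 1 of 10 genes, beside 3.99% of all genes. Among the genes with a WT promoter peak, 12.8% also had a Cxxc1-deficient one, and among the 1741 with the highest WT values, which include Cd6, Thy1 and Cd24a, 18.5% did. The count in this group was 1 of 5. Among the 1741 with the lowest WT values, which include Cd27, the share was 9.82%, and among the 1740 between 2.4 and 3.0 RPM, which include Spn, it was 11.8%. The absence of a listed Cxxc1-deficient promoter peak at Thy1, Cd24a, Spn and Cd27 was thus shared by most genes with WT H3K4me3.

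Most promoters of the group were poor in CpG beside those of other genes with H3K4me3. The median observed to expected CpG ratio within 500 bp of the first TSS was 0.30 for the 10 genes, 0.55 for all genes and 0.75 for the genes with a WT promoter peak. Cd24a, at 0.79, was the one gene above the median of all genes. Genes were divided into 5 classes of equal size by this ratio. In the lowest class 4.87% of genes had a WT promoter peak, and Spn and Cd27 did of the 3 genes there (Slamf1 being the other). In the next class 11.8% did, and Cd6 did of 5 (with Ptprc, Cd2, Cd28 and Cd44). Thy1 and Cd24a fell in classes where 32.2% and 49.8% had one. The 4 marked genes other than Cd24a had ratios of 0.18 to 0.43, and 11.8% of the genes with a WT promoter peak lay at or under that of Thy1.

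**Figure D3:**
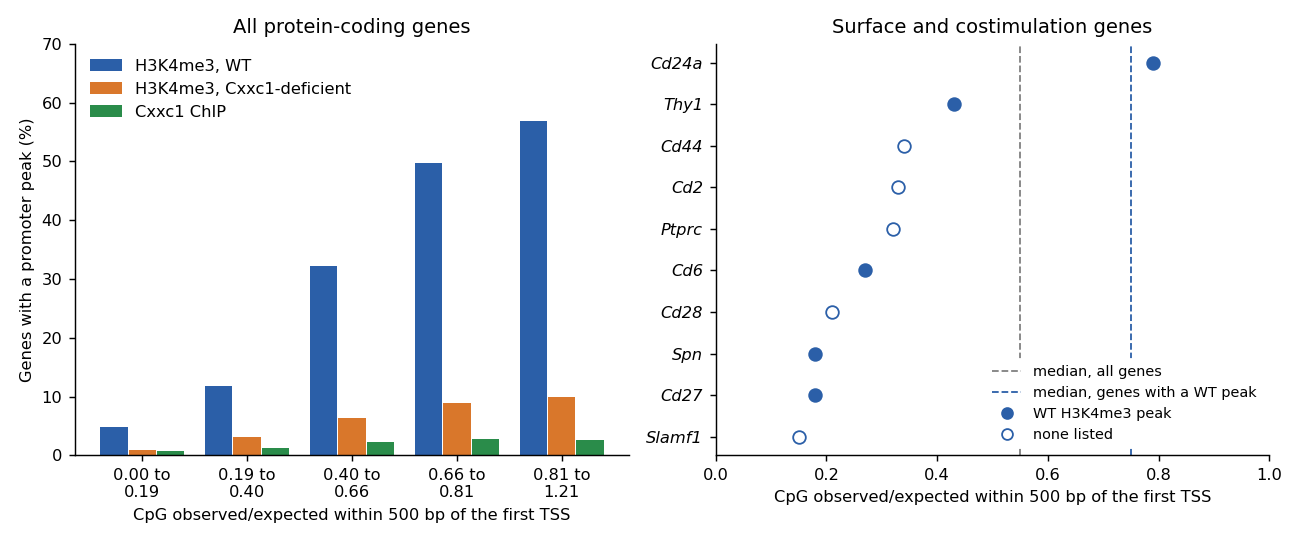
Left, the share of protein-coding genes with a promoter peak (y axis, %) in 5 equal classes of CpG observed to expected ratio (x axis), for each list. Right, the ratio at each of the 10 genes (x axis), with filled points for a WT H3K4me3 promoter peak and open points for none listed, and dashed lines at the medians of all genes (0.55) and of genes with a WT peak (0.75). Cd6, Spn and Cd27 are filled although they lie in the classes with the lowest shares.

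Genes that act with this group were counted from lists set apart from it. Of 12 ligands and intracellular partners, 6 had a WT promoter peak: Alcam (2.5 RPM), the ligand of CD6, the CD2-binding adaptors Cd2bp2 (3.2 RPM), Cd2ap (1.5 RPM) and Pstpip1 (2.8 RPM), the CD27-binding Siva1 (2.8 RPM), and Ptprcap (1.0 RPM), which associates with CD45. These values sum the windows within 1 kb of a TSS and can be part of a larger peak. None of the 12 had a Cxxc1-deficient or Cxxc1 promoter peak listed. The shares of all genes were 31.1% for WT, 5.86% for Cxxc1-deficient H3K4me3 and 1.96% for Cxxc1, so none of 12 is unremarkable for the last 2 lists. In the gene body plus 10 kb upstream, 8 of the 12 were listed for WT, 0 for Cxxc1-deficient H3K4me3 and 3 for Cxxc1. The shares of all genes there were 41.5%, 11% and 11.1%. The ligands Cd48, Cd70, Cd80 and Cd86, and the adaptors Grap2 and Sh2d1a, had no promoter peak in any list.

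Of 33 other T cell surface genes, a promoter peak was listed at 13 for WT H3K4me3, at 6 for Cxxc1-deficient H3K4me3 and at 0 for Cxxc1. The shares of all protein-coding genes were 31.1%, 5.86% and 1.96%, so few or no Cxxc1 peaks would be found in any list this short. The 6 were 4 integrin chains and 2 tetraspanins, and each was also listed in WT. They were Itgal (0.6 RPM in WT, 1.9 RPM in Cxxc1-deficient cells), Itgb2 (2.7 and 1.9 RPM), Itga4 (2.7 and 2.4 RPM), Itgb1 (2.3 and 1.4 RPM), Cd81 (2.6 and 1.9 RPM) and Cd82 (4.3 and 1.4 RPM). The Cxxc1-deficient sum was lower at 5 of the 6 and higher at Itgal. As at Cd6, each sum covers only the windows its own list holds within 1 kb of a TSS. It can be part of a larger peak, the lowest whole peak of each list being 1.1 RPM. Such a sum is therefore not a measure of a difference between genotypes. Cd5, Cd37, Cd47, Icam1, Ly6d, Ly6e and Pdcd1 had a WT promoter peak, with sums of 1.8 to 3.1 RPM, and no Cxxc1-deficient promoter peak. In the gene body plus 10 kb upstream, 16 of the 33 were listed for WT, 10 for Cxxc1-deficient H3K4me3 and 5 for Cxxc1. The shares of all genes there were 41.5%, 11% and 11.1%.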

How the data were processed

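Per the study's methods, formaldehyde-fixed chromatin was sonicated and sequenced as 50-bp reads. Submitters' notes name CASAVA 1.8.2, SICER 1.1 and mm9. Uniquely mapped reads went into SICER with input and Cxxc1-deficient ChIP as controls. The aligner, duplicate handling and the control used for H3K4me3 are not given in the sources used here, and each can change which windows are listed. The authors deposited RPM at 1 decimal for 200-bp windows of called regions, with some windows inside the joined peaks left out. The lowest listed window held 2 tags in each list. Each RPM was converted to whole tags with the inferred value of 1 tag, and 100% of windows matched a whole number of tags after rounding to 1 decimal. That value was chosen to fit these same windows, so the match is not a separate check of the conversion.

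Here windows were joined into peaks, and overlap meant at least 1 bp with regions of the 22372 protein-coding genes of GENCODE vM1 (NCBIM37, the assembly of mm9). Python 3.11.15, numpy 2.4.6, pandas 2.3.3, scipy 1.17.1 and matplotlib 3.10.9 were used, and the code was tested on simulated data. Sequences were read from NCBIM37. Without replicates, no count test between groups was run. Alternatives are given in the closing section. All 10 genes were named, partner, surface and marker genes were counted from fixed lists, and all were chosen with earlier results of these data known.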

Additional observations from a re-analysis of the deposited data

How the results depend on the processing

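Of 44 alternative values, 40 stayed within 1.5 times the reported count or inside the counting interval of the reported RPM. With no missing window bridged, the group had 26 WT and 13 Cxxc1-deficient peaks in place of 10 and 4, by construction. With 50 kb upstream, 5 genes had a Cxxc1-deficient peak in place of 3, Cd24a and Cd27 being added. With 2 kb on either side of a TSS, Cd6 held 2.4 RPM in Cxxc1-deficient cells in place of 1.2 RPM, and 5.0 RPM in WT in place of 3.9 RPM. The promoter counts were also taken from listed windows in place of peak spans, an alternative chosen after seeing the data, and were equal. Values of 15 to 53 tags a peak limit every single-gene statement. No paired analysis was possible because the libraries carry no replicate numbers.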

Other observations

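The genes most like Cd6 and Thy1 in these lists were sought over 6 values a gene (promoter and gene region RPM in each list, with unlisted taken as 0 for this purpose). The 3 nearest to Cd6 (WT promoter 3.9 RPM, Cxxc1-deficient promoter 1.2 RPM) were Irf2bp2 (4.0 and 1.1 RPM), Junb (4.1 and 2.0 RPM) and Trip4 (4.2 and 1.6 RPM), at distances of 0.79, 0.85 and 0.93 RPM. The 3 nearest to Thy1 (WT gene region 7.6 RPM, Cxxc1-deficient gene region 4.1 RPM, and no Cxxc1-deficient promoter peak) were Ubac2 (7.5 and 4.5 RPM), Stat3 (7.2 and 3.9 RPM) and Pip4k2a (7.4 and 4.2 RPM), at 0.81, 1.00 and 1.02 RPM.

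At Ptprc, the Cxxc1 peak and the Cxxc1-deficient H3K4me3 peak each had 6 windows, and the 6 RPM values were the same in the same order (0.4, 0.3, 0.3, 0.3, 0.2 and 0.4 along the chromosome). In 5 of the 6, the H3K4me3 window lay exactly 40000 bp from its Cxxc1 counterpart. This was noticed after the values were seen and was not tested, and windows of 2 to 4 tags take few different values.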
